A study of Mus musculus with 2 samples.

Results

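Collagen genes were taken as all genes whose symbol is Col, a number, the letter a and a number, such as Col1a1, and 44 of the 55536 annotated genes met this rule. They were grouped by the protein that their chains form into 11 fibrillar, 6 basement membrane, 6 beaded and 21 other genes. Their RNA was measured by total RNA sequencing in the heart of 2 female B6CASTF1/J mice, first-generation hybrids of C57BL/6 and CAST parents, aged 2 months, for which the labels name no treatment. Both animals form 1 group (n = 2). Each library was made from 300 ng of RNA depleted of ribosomal RNA, with ERCC spike-ins (synthetic transcripts of known amount) added. The labels number the females and the biological replicates separately but give both the same donor entry, so that their being 2 animals is taken here from the numbers. If they share a source, the differences below are between samples of it. Each animal carries 1 C57BL/6 and 1 CAST copy of every autosomal and X-linked gene, and the tables do not separate the copies.

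Collagens are secreted proteins in which 3 chains wind into a triple helix, and a glycine at regular spacing along each chain lets the chains pack at the helix axis. Fibrillar collagens assemble into the cable-like fibers that bear tension in the heart wall, and basement membrane collagens form sheets around each myocyte and under the endothelium of each vessel. Beaded collagen filaments lie at the border between these sheets and the fibers, and the remaining collagens decorate fibrils, span membranes or release fragments from the vessel wall.

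The classes differ in how long the glycine repeat runs without a break, which can be read from the reference genes. The exons below are coding exons of the GRCm38 (mm10) reference, read 5′ to 3′ on the coding strand from the longest annotated coding transcript of each gene. They are shown because they hold the repeat that defines the family. Capitals mark the glycine codons (GG and any base) that stand in a run of at least 3 successive glycine triplets, where a triplet is a glycine codon and the 2 codons after it. For the fibrillar genes Col3a1 (chr1:45325360-45325413, plus strand, coding exon 6), Col1a1 (chr11:94939904-94939957, plus strand, coding exon 8) and Col1a2 (chr6:4515481-4515534, plus strand, coding exon 8) the exon is the first of 54 bases inside the longest run.
Col3a1: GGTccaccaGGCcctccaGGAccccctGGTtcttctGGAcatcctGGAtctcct
Col1a1: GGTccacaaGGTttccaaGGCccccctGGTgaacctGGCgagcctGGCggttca
Col1a2: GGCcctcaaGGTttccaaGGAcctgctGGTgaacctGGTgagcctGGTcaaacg

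Each of these 3 exons consists of 6 whole triplets, each of which opens with a glycine codon in capitals. A glycine codon at another place in a triplet is left in lower case. A break between 2 runs was taken if it held at most 6 codons, with at least 18 bases of run on each side in the exon. For the genes of the other classes the exon shown is the first of up to 200 bases that spans such a break. These are Col4a1 (chr8:11267597-11267656, minus strand, coding exon 2) and Col4a2 (chr8:11406813-11406854, plus strand, coding exon 11) of the basement membrane, the beaded Col6a1 (chr10:76714658-76714708, minus strand, coding exon 23) and Col6a2 (chr10:76606575-76606625, minus strand, coding exon 18), and Col15a1 (chr4:47270252-47270377, plus strand, coding exon 13), whose protein is a multiplexin of vessel walls.
Col4a1: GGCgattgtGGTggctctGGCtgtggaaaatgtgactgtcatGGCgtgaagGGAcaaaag
Col4a2: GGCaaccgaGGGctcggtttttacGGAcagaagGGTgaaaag
Col6a1: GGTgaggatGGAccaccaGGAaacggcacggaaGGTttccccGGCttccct
Col6a2: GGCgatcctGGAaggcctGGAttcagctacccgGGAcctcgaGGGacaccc
Col15a1: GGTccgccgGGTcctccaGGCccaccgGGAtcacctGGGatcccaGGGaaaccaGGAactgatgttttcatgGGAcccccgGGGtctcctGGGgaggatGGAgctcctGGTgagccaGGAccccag

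In these exons the spacing of the capitals widens at 1 place, where extra codons break the repeat. Over whole coding sequences, the longest unbroken run was 344 triplets in Col3a1, 339 in Col1a2 and 338 in Col1a1. The 11 fibrillar genes had a median of 338 triplets and a range of 216 to 344, with Col24a1 (216) and Col27a1 (217) apart from the rest. The 6 basement membrane genes reached 39 to 66 triplets, and their coding sequences held 23 to 27 runs, against 2 to 5 in the fibrillar genes. Runs were counted over the whole coding sequence without regard to protein domains, so a short run need not be part of the helix. Col6a1 and Col6a2 shared a longest run of 87 triplets, and the other beaded genes had 37 to 45.

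Exon lengths differed between the classes as a whole, with overlap between single genes. Of 649 coding exons of the fibrillar genes, 305 (47.0%) were 54 bases long, which is 6 triplets, and 59.9% were 54 or 108 bases. The share of exons of 54 bases was 4.05% in basement membrane genes, 7.83% in beaded genes and 16.03% in the others. Within the others the fibril-associated collagens came to 25.2%, and Col22a1, with 28 of 63 exons, and Col9a2 and Col9a3, with 14 of 32 each, had shares like that of Col1a1, with 21 of 51. Among 238832 coding exons of other protein-coding genes, 0.482% were 54 bases long.

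**Figure D1:**
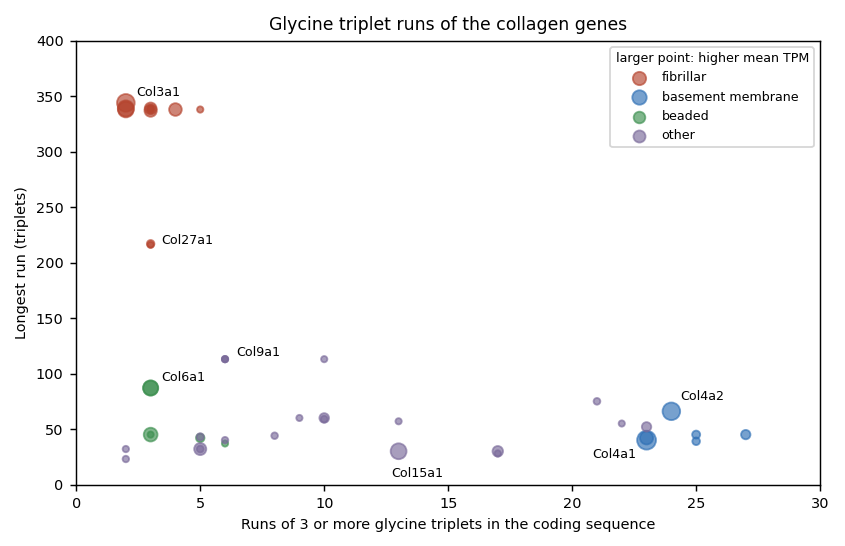
Longest run of successive glycine triplets (vertical axis, triplets) against the number of runs of 3 or more triplets (horizontal axis) in the longest annotated coding sequence of each of the 44 collagen genes, coloured by class, with larger points for genes of higher mean TPM in heart. Fibrillar genes lie at the top left with 216 to 344 triplets, and basement membrane genes at the lower right with 23 to 27 runs.

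Collagen genes took 0.170% of the 41862353 gene reads of animal 1 and 0.218% of the 41789989 gene reads of animal 2. Levels are TPM, the relative abundance of transcripts corrected for length, given for animal 1 and then animal 2. TPM is a relative scale and shifted between the libraries, by a median of 0.22 (log2, animal 2 over animal 1) in the 16133 genes that had 20 reads or more. Levels therefore serve to rank genes, and differences between the animals were tested on reads scaled by TMM, a factor that centres the bulk of genes. In bulk tissue fewer cells of a type and less RNA per cell cannot be told apart.

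A short list of genes held most of the collagen TPM. Of 44 genes, 19 reached 1 TPM in both animals, against 50.2% of all nuclear protein-coding genes. The count depended on the scale and was 24 with TPM rescaled to nuclear protein-coding genes. All collagens summed to 379 and 537 TPM (458 ± 112, SD, n = 2). Col4a1 alone gave 25.01% ± 0.668 of this sum, the first 3 genes 54.2% ± 0.577, the first 6 genes 75.2% ± 0.730 and the first 10 genes 89.9% ± 0.510. The order of the 19 genes was identical in both animals, with 0 of 171 pairs of genes in another order.

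**Figure D2:**
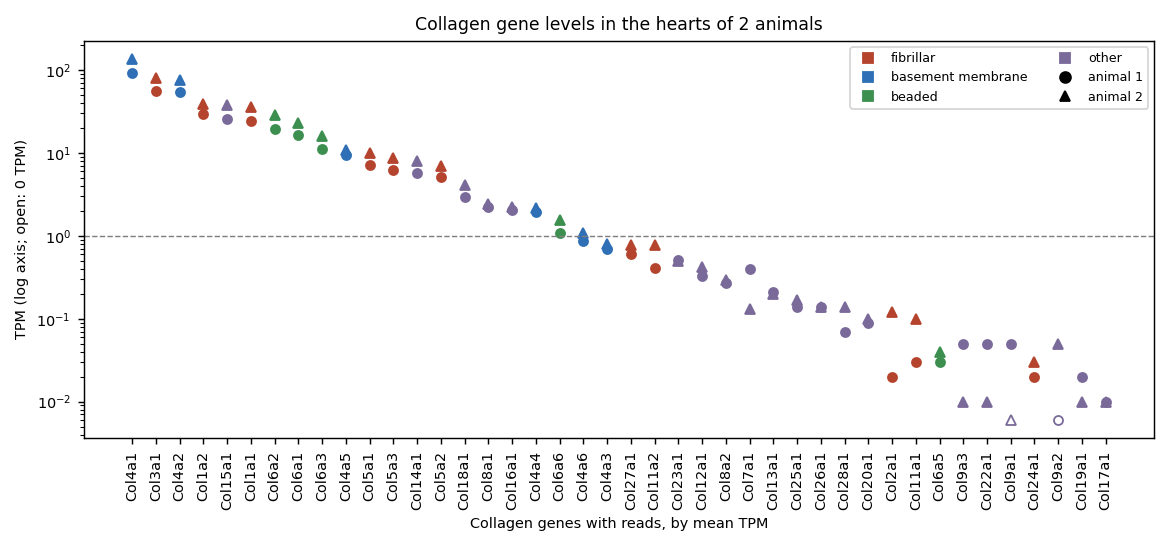
TPM on a log axis for the 42 collagen genes with reads, ordered by mean TPM and coloured by class, with a circle for animal 1, a triangle for animal 2 and an open symbol for 0 TPM. The dashed line marks 1 TPM, and 19 genes lie above it, led by Col4a1 at 93.1 and 137 TPM.

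Basement membrane genes formed the largest class by sum, at 161 and 228 TPM (194 ± 47.3, 42.4% ± 0.0194 of collagen TPM). Col4a1 (ENSMUSG00000031502.11, chr8:11198423-11312826, minus strand), which encodes the alpha1 chain of the collagen IV of nearly all basement membranes, stood at 93.1 and 137 TPM from 16206 and 21393 reads, and ranked 478 among nuclear protein-coding genes. Its partner Col4a2 (ENSMUSG00000031503.13, chr8:11312805-11449287, plus strand), whose alpha2 chain joins alpha1 chains in 1 protomer, had 54.6 and 75.8 TPM and rank 843. These 2 genes held nearly all of the class.

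The other 4 genes encode chains of more restricted collagen IV networks, such as that of the kidney filter. Col4a5, on the X chromosome, reached 9.39 and 10.9 TPM. Col4a4 followed at 1.96 and 2.19 TPM, while Col4a6 (0.870 and 1.09 TPM) and Col4a3 (0.690 and 0.790 TPM) had means below 1 TPM. Col4a5 was thus the next chain of this family after Col4a1 and Col4a2, with values in both animals that overlap neither Col4a2 above nor Col4a4 below it.

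The 6 basement membrane genes lie in 3 head-to-head pairs. Col4a1 and Col4a2 overlap by 22 bases at their annotated starts, Col4a6 and Col4a5 start 1308 bases apart on chromosome X, and Col4a4 and Col4a3 start 71 bases apart on chromosome 1. The whole stretch between the last pair is given here because both genes start at its ends (GRCm38, chr1:82586850-82586920, plus strand, with Col4a4 leading to the left and Col4a3 to the right).
Col4a4_Col4a3_between: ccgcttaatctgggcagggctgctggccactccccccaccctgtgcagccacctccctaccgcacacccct

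Members of a pair did not reach the same level. The ratio of TPM of Col4a2 to Col4a1 was 0.587 and 0.554 (0.570 ± 0.0236), that of Col4a6 to Col4a5 0.0927 and 0.100 (0.0965 ± 0.00539), and that of Col4a4 to Col4a3 2.84 and 2.77 (2.81 ± 0.0484). The last of these depended on the quantification, at 1.28 in the second transcript table. In that table, which the authors made from the reads with another tool, all 6 genes of the class reached 1 TPM in both animals.

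Fibrillar genes came second, at 130 and 183 TPM (156 ± 37.8, 34.2% ± 0.0547 of collagen TPM). Col3a1 (ENSMUSG00000026043.18, chr1:45311538-45349706, plus strand), the sole chain of the fine collagen III fibers of distensible tissue, was the second most abundant collagen at 56.1 and 80.4 TPM. Collagen I, the main protein of stiff fibers, is built from the products of Col1a1 and Col1a2. Col1a2 (chr6:4504814-4541544, plus strand) had 29.9 and 39.1 TPM and Col1a1 (chr11:94936224-94953042, plus strand) 24.02 and 36.2 TPM. Collagen III thus stood above each collagen I gene in both animals, and the Col1a1 level of animal 2 lay within the range of Col1a2.

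Collagen V nucleates fibrils and sets their width. Its genes were lower, with Col5a1 at 7.20 and 10.1 TPM, Col5a3 at 6.27 and 8.65 TPM and Col5a2 at 5.11 and 6.95 TPM. These 3 genes overlapped between animals, so their order rests on the order within each animal. The other 5 fibrillar genes stayed below 1 TPM: Col27a1 at 0.600 and 0.780 TPM, Col11a2 at 0.410 and 0.780 TPM, and Col2a1, Col11a1 and Col24a1 at 0.12 TPM or less in each animal. For Col11a2 the 2 TPM values came from nearly equal reads, 89 and 91.

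Col2a1, the collagen of cartilage, had 3 and 4 reads in all. Of 6 cartilage markers, Acan, a cartilage proteoglycan, had 0.11 and 0.05 TPM, Matn1 0 and 0.03 TPM and Matn3 0.01 and 0 TPM. The others were above Col2a1, with Sox9 at 0.41 and 0.56 TPM, Cnmd at 0.44 and 0.90 TPM and Comp, which tendon and vessels express as well, at 2.39 and 2.37 TPM. All 6 summed to 3.36 and 3.91 TPM.

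Beaded filament genes summed to 48.4 and 69.3 TPM (58.8 ± 14.8, 12.8% ± 0.102 of collagen TPM). The collagen VI heterotrimer takes 1 chain from each of Col6a1, Col6a2 and Col6a3. Col6a2 had 19.7 and 28.8 TPM, Col6a1 16.6 and 23.1 TPM and Col6a3 11.04 and 15.8 TPM. The ratio of TPM was 1.22 ± 0.0434 for Col6a2 to Col6a1 and 0.676 ± 0.0133 for Col6a3 to Col6a1. The second of these fell to 0.403 when main transcripts alone were counted. Of the TPM of Col6a3, 23.8% came from transcripts not annotated as protein-coding. Most of this share (22.7% of the gene's TPM) was a transcript of 646 bases annotated as a retained intron. That transcript took only 50.6 and 65.9 of the gene's 2363 and 3057 reads, so the share by TPM is far above its share of reads. Of the 3 genes for chains that can stand in for the alpha3 chain, Col6a6 reached 1.07 and 1.54 TPM, Col6a5 0.03 and 0.04 TPM, and Col6a4 had no read.

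Among the other 21 genes, which summed to 40.6 and 57.0 TPM (48.8 ± 11.6, 10.7% ± 0.0671 of collagen TPM), 2 multiplexins gave most of the sum. Col15a1 (chr4:47208161-47313167, plus strand), which links basement membranes of capillaries and muscle fibers to the matrix, stood at 25.4 and 38.0 TPM and was the fifth collagen of the heart. Col18a1, whose protein releases endostatin, had 2.92 and 4.11 TPM. Of the fibril-associated collagens, Col14a1 reached 5.68 and 8.04 TPM and Col16a1 2.07 and 2.21 TPM. Col8a1, of the hexagonal network under endothelium, had 2.24 and 2.45 TPM, while its partner Col8a2 had 0.270 and 0.290 TPM.

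The remaining genes of this class were at 0.51 TPM or less in each animal. They were Col23a1, Col12a1, Col8a2, Col7a1, Col13a1, Col25a1, Col26a1, Col28a1, Col20a1, Col9a3, Col22a1, Col9a1, Col9a2, Col19a1, Col17a1 and Col10a1. Among them Col7a1 encodes the anchoring fibrils of skin, Col17a1 the hemidesmosome collagen of epithelia, and Col10a1 the collagen of growth plate cartilage. Col10a1 had no read in either library, which allows a level of up to 0.0717 CPM of gene reads in animal 1 and 0.0718 in animal 2, by counting error alone. In all, 2 of 44 genes had no read, 10 had 1 to 19 reads and 32 had at least 20.

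**Figure D3:**
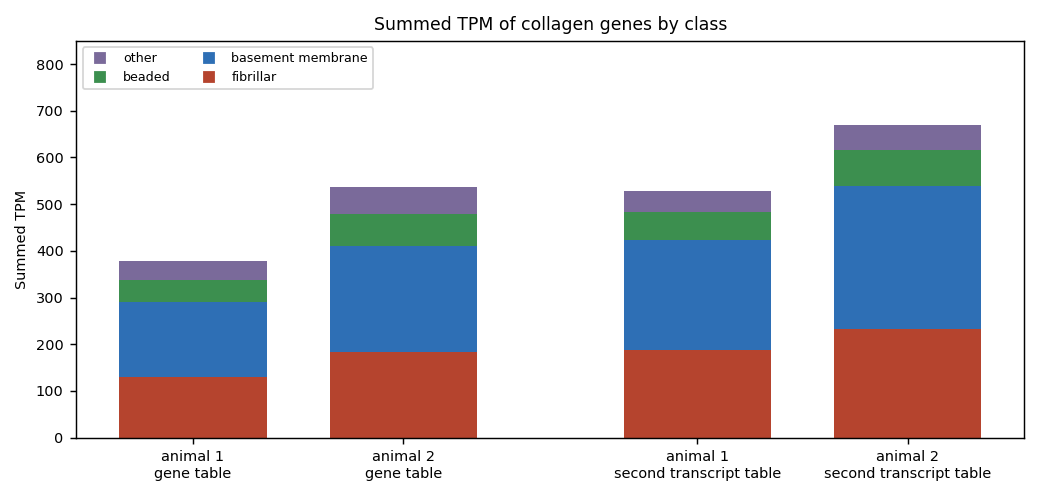
Summed TPM of the 4 collagen classes, stacked, in each animal in the gene table (left pair of bars) and in the second transcript table (right pair). Basement membrane genes form the largest part of every bar, and the totals are 379 and 537 TPM on the left and 529 and 670 TPM on the right.

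The second transcript table gave higher levels with nearly the same order. The collagen sum was 599.8 TPM there, fibrillar genes took 35.02% and basement membrane genes 45.2% of it, and 2 of 171 pairs of genes changed order, Col15a1 with Col1a1 and Col8a1 with Col16a1. The increase was uneven. Col4a1 went from a mean of 115 to 177 TPM and Col3a1 from 68.3 to 106 TPM, while Col1a1 went from 30.1 to 32.6 TPM and Col15a1 from 31.7 to 29.3 TPM.

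In Col4a1 most of this difference lay in short transcripts, since the main transcript alone had a mean of 80.4 TPM in the first and 89.6 TPM in the second table. This full-length transcript, Col4a1-201 (6615 bases), held 70.04% and 69.85% of the gene's TPM, and Col4a1-203, a transcript of 545 bases annotated as protein-coding, held 25.81% and 29.16% although it took only 397 and 594 reads. In the second table Col4a1-201 held 50.7%, and 2 other short transcripts, annotated as noncoding or as a target of nonsense-mediated decay and at 1.64% and 0% in the first table, held 17.9% and 11.5%. For Col3a1 the full-length Col3a1-201 held 83.6% in the first and 57.3% in the second table, where the 737-base Col3a1-205 held 35.6%.

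Comparing partner chains by their main transcripts alone, a choice made after the values were seen, gave closer values in the 2 tables for collagens IV and I. On this measure Col4a2 to Col4a1 was 0.811 ± 0.0286 in the first and 0.797 in the second table, against 0.570 and 0.448 for whole genes. Col1a2 to Col1a1 was 0.986 ± 0.0263 and 1.03, against 1.16 ± 0.115 and 1.36 for whole genes. For Col6a3 to Col6a1 the tables moved apart, at 0.403 and 0.352 by main transcripts against 0.676 and 0.684 for whole genes. The order of Col1a2 and Col1a1 depended on which transcripts were counted, and in the first table the main transcript of Col1a2 was above that of Col1a1 in animal 1 (24.1 against 23.9 TPM) and below it in animal 2 (34.6 against 35.7 TPM).

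By the mean share of both animals, the tables named the same main transcript for all 19 genes at 1 TPM. Of these transcripts 18 were protein-coding. In 8 genes the main transcript held over 90% of the gene's TPM in the first table, such as Col5a1-201 at 100% and Col4a2-201 at 99.5%. In the second table Col5a1-201 held 89.9% and Col4a2-201 90.4%. The 5 lowest shares in the first table were those of Col16a1 (30.6%), Col14a1 (56.9%), Col6a3 (59.2%), Col4a1 (69.9%) and Col15a1 (73.4%, but 94.4% in the second table). In Col16a1 the main transcript is annotated as a target of nonsense-mediated decay. Its share was 21.7% in animal 1 and 39.6% in animal 2, and the gene's 204 and 229 reads were divided over 13 transcripts. For Col6a3 the main transcript was Col6a3-202 (9001 bases), and Col6a3-201, with the longest coding sequence, held 0% in the first and 7.31% in the second table.

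The animals differed in the level of the abundant collagens, by a modest and similar factor. Of 32 collagen genes with at least 20 reads, 15 had more scaled reads in animal 2 beyond counting error and 0 had more in animal 1. Over all genes tested 11.3% differed, 6.6% higher in animal 2 and 4.75% higher in animal 1. No collagen gene differed by 2-fold, as 1.39% of all genes did. The test was a two-sided exact binomial test of the reads with Benjamini-Hochberg adjustment over all 16133 genes. It compares 2 libraries of 1 group and sees counting error alone, so the differences have no replicate check.

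Col4a1 had 1.25-fold more scaled reads in animal 2 (95% interval 1.23 to 1.28, adjusted p = 3.23e-101, exact binomial test). Col3a1 was at 1.22-fold (1.18 to 1.25), Col4a2 at 1.19-fold (1.16 to 1.22), Col1a1 at 1.27-fold (1.23 to 1.32) and Col1a2 at 1.21-fold (1.16 to 1.25). The intervals of Col4a1 and Col1a1 lie above that of Col4a2, and those of Col3a1 and Col1a2 overlap all 3. The summed reads of a class, scaled in the same way, gave 1.22 for fibrillar, 1.199 for basement membrane, 1.23 for beaded and 1.203 for the other genes.

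By class, 6 of 8 fibrillar genes tested were higher in animal 2, with Col5a1 at 1.19-fold, Col5a3 at 1.18-fold and Col5a2 at 1.14-fold beside the 3 above. All 3 main collagen VI genes were, with Col6a2 at 1.25-fold, Col6a1 at 1.19-fold and Col6a3 at 1.23-fold. Col6a6 had the largest ratio of the called genes, 1.37-fold (1.18 to 1.59, adjusted p = 3.79e-04, exact binomial test), so that 4 of 5 beaded genes were higher. Of the 13 other genes, Col15a1 (1.25-fold), Col14a1 (1.25-fold) and Col18a1 (1.21-fold) were called.

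In the basement membrane class only Col4a1 and Col4a2 of 6 genes were called. Col4a5 had 2242 and 2233 reads, a ratio of 0.944 (0.890 to 1.002, adjusted p = 0.244, exact binomial test), and its interval did not overlap that of any of the first 9 genes. Col4a4 was at 1.02 (0.903 to 1.15), Col8a1 at 0.946 (0.822 to 1.09) and Col16a1 at 1.06 (0.877 to 1.29), none of them called, with intervals that reach to both sides of 1.

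**Figure D4:**
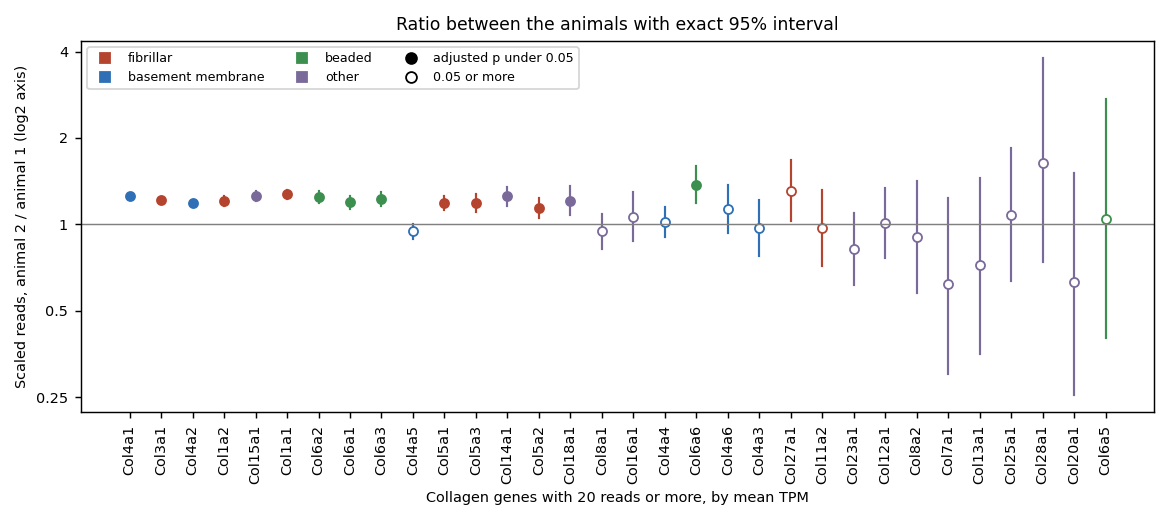
Ratio of scaled reads in animal 2 over animal 1 on a log2 axis, with its exact 95% interval (bar), for the 32 collagen genes with at least 20 reads, ordered by mean TPM; filled points have an adjusted p under 0.05. The first 9 genes lie together between 1.19 and 1.27, Col4a5 lies at 0.944, and intervals widen to the right as reads fall.

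Intervals widen as reads fall, so calls are also given by depth. Of 16 collagen genes with at least 1000 reads over both animals, 14 were higher in animal 2, with a median log2 ratio of 0.27 and a robust SD of 0.05, and Col4a5 and Col4a4 were the genes not called. Among 6838 protein-coding genes of the same depth 11.2% were higher in animal 2 and 6.23% in animal 1, with a median of 0.0062 and a robust SD of 0.09. A ratio of 1.1 or more was found in 14 of these 16 collagen genes and in 12.2% of the protein-coding genes. Of 16 collagen genes with 20 reads or more but under 1000, only Col6a6 was called, 8 had a ratio above 1 and 8 below, and the median was -0.01. Of all genes tested, at any depth, 6.6% were higher in animal 2 and 4.75% in animal 1.

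Genes that make, cut and bind collagen were examined from 8 lists of 67 genes, of which 63 were tested. Among these 63, 21 were higher in animal 2 and 2 were higher in animal 1, none by 2-fold, with a median log2 ratio of 0.12 against -0.0024 over all genes. Of all genes tested 6.6% were higher in animal 2 and 4.75% in animal 1, and of protein-coding genes of 1000 reads or more 11.2% and 6.23%.

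Before secretion collagen chains are hydroxylated and glycosylated in the endoplasmic reticulum. The 15 genes for these steps summed to 266 ± 44.0 TPM, led by P4hb (80.0 and 97.0 TPM), a subunit of prolyl 4-hydroxylase, the cyclophilin Ppib (38.8 and 49.7 TPM) and lysyl hydroxylase Plod1 (22.01 and 28.96 TPM). Of 14 tested, 5 were higher in animal 2: P4ha1 (1.302-fold), Plod1 (1.198-fold), P4ha2 (1.16-fold), Plod3 (1.14-fold) and P4hb (1.08-fold). Among 8 chaperone and export genes, Serpinh1, which encodes the collagen-specific chaperone HSP47, had 77.9 and 121 TPM and was 1.31-fold higher in animal 2 (1.27 to 1.36, adjusted p = 4.37e-55, exact binomial test). The export genes Sar1b (51.2 and 54.1 TPM) and Mia3 (40.9 and 44.3 TPM) had ratios of 0.8997, which was called, and 0.964, which was not.

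After secretion the propeptides are removed and the fibrils cross-linked. None of 8 processing genes was called, and Pcolce, Pcolce2 and Bmp1 led them at means of 21.2, 12.2 and 6.17 TPM. Of 6 cross-linking genes, Loxl2 (1.34-fold), Pxdn (1.19-fold) and Loxl1 (1.17-fold) were higher in animal 2. Pxdn, a peroxidase that cross-links collagen IV, was the highest of them at 12.5 and 18.0 TPM, before Loxl1 at 9.05 and 12.5 TPM and Loxl2 at 4.47 and 6.98 TPM. Lox itself had 1.00 and 1.38 TPM.

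Among small proteoglycans that coat fibrils, Dcn was above every collagen gene in each animal in the first table, at 133 and 169 TPM. In the second table its mean was 175 TPM, just below the 177 TPM of Col4a1. Bgn had 77.2 and 88.7 TPM and Ogn 27 and 32.9 TPM. Of the 6 genes, Dcn was 1.08-fold higher in animal 2 and Fmod was higher in animal 1 (ratio 0.799, 0.699 to 0.913).

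For breakdown and uptake, Mmp2 (21.2 and 31.2 TPM), Mrc2 (5.92 and 7.71 TPM) and Mmp14 (4.14 and 7.26 TPM) led 8 genes, and 4 of the 6 tested were higher in animal 2, with Fap at 1.49-fold, Mmp14 at 1.35-fold, Mmp2 at 1.24-fold and Mrc2 at 1.19-fold. Of the 4 inhibitors, Timp3 (51.1 and 67.8 TPM), Timp2 (36.2 and 47.8 TPM) and Timp4 (9.03 and 13.1 TPM) were higher in animal 2 by 1.15-fold, 1.15-fold and 1.21-fold. Among 11 receptor genes, Itgb1 (121 and 148 TPM, 1.07-fold), the collagen III receptor Adgrg1 (17.8 and 29.8 TPM, 1.27-fold), Ddr2 (1.18-fold) and Itga11 (1.66-fold) were higher in animal 2, while Itga1 (12.04 and 15.3 TPM), the alpha1 subunit of a collagen IV receptor, was not called at 1.02-fold.

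Some markers of other cells of the heart wall were higher in animal 2 as well, against 6.6% of all genes tested and 11.2% of protein-coding genes of 1000 reads or more. Of 8 mural cell markers 6 were higher in animal 2 (median log2 ratio 0.25, sums of 286 and 382 TPM), of 6 endothelial markers 5 (0.18, 173 and 224 TPM), of 8 fibroblast markers 4 (0.11, 226 and 285 TPM), and of 6 macrophage markers 3 (0.21, 58.3 and 79.3 TPM). The fibroblast markers Postn (0.859) and Tcf21 (0.899) had ratios below 1 and were not called. Of 8 cardiomyocyte markers 1 was higher in animal 2 and 5 were lower, with a median of -0.05 and ratios from 0.885 for Ttn to 1.07 for Actc1, and sums of 29226 and 33541 TPM. Of the fibroblast markers, Dcn, Lum and Ddr2 are also in the pathway lists. The part of these cell types in the collagen difference was not tested.

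Of 5 fat cell markers, which summed to 21.3 and 55.2 TPM, 3 were higher in animal 2, with Adipoq at 2.75-fold, Cfd at 2.30-fold and Plin1 at 1.67-fold. Retn was not called at 1.22-fold, and Lep had too few reads for the test. None of the 5 mesothelial (19.3 and 20.1 TPM), 4 tested Schwann cell (4.34 and 4.95 TPM) and 4 tested cartilage markers was called. Skeletal muscle markers summed to 1.97 and 2.19 TPM, and Myh1 among them was higher in animal 1, at 0.10 and 0.01 TPM. The part of these markers in the collagen values was not tested either.

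**Figure D5:**
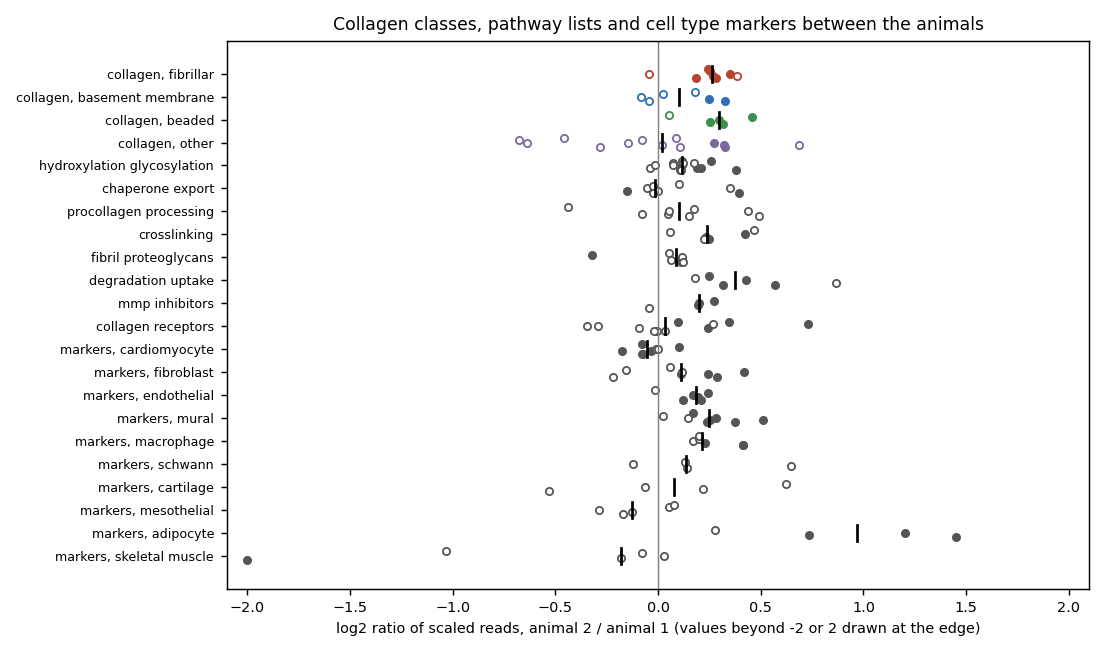
Log2 ratio of scaled reads in animal 2 over animal 1 for each tested gene (points; filled where the adjusted p is under 0.05) of the 4 collagen classes, 8 lists of collagen pathway genes and 10 lists of cell type markers, with a bar at the median of each. Most medians lie to the right of 0, such as those of fibrillar (0.26), beaded (0.29) and basement membrane (0.10) collagens. Those of mural (0.25), endothelial (0.18), macrophage (0.21), fibroblast (0.11) and adipocyte (0.97) markers do so too. The medians to the left of 0 are those of cardiomyocyte (-0.05), mesothelial (-0.13) and skeletal muscle (-0.18) markers and of chaperone and export genes (-0.01).

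Promoter sequence was compared through RefSeq windows of 300 bases on GRCm38.p6, from 250 before to 50 after a start, which gave 38 windows for 35 of the 44 genes. Motifs of 3 kinds were searched on both strands. The letters GGGCGG, the core of the GC box, stood in 60.5% of the collagen windows and in 35.7% of all 32851 windows. The letters TATAAA, as in the TATA box, stood in 13.2% of the collagen windows and 13.6% of all. The letters CCAAT stood in 34.2% of the collagen windows and 37.4% of all. Col3a1 had the TATA letters and no other motif, while Col1a2, Col4a1 and Col4a2 had both of the other motifs. The windows of Col4a1 and Col4a2 overlap, as do those of Col6a2, which all hold the GC box letters. Col1a1, Col5a2 and Col14a1 were among the genes without a window. The GC box letters were in 12 of 18 windows of genes at 1 TPM and in 11 of 20 windows of genes below it.

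Annotated overlaps touched few of the values. Apart from the 22 bases that Col4a1 and Col4a2 share on opposite strands, the microRNA gene Gm47302 inside Col3a1 took 159 and 171 reads, 1.48% of those of Col3a1. C430014B12Rik, on the opposite strand, overlaps Col4a3 by 563 bases and took 6 and 9 reads, 4.55% of those of Col4a3. Col20a1, with 15 and 10 reads, overlaps BX649560.1, with 210 and 192 reads, on the same strand, so its level is uncertain. The authors' own spread of read assignment was above 0 in 3 collagen genes. It was 5.57 and 6.68 reads in Col3a1, and 0.21 and 0.43 reads in both Col6a6 and Col6a5. Col6a5 had only 10 and 11 reads.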

How the data were processed

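Collagen genes were examined in 2 libraries of total RNA from heart. The deposited gene table and first transcript table hold expected counts, not normalised, and TPM over all entries, in the layout of RSEM and made from transcriptome alignments of mm10 with the M21 annotation, per the deposited readme and the file headers. The first transcript table also holds the percent of a gene's TPM per transcript, and the gene table a posterior standard deviation, a score of assignment spread, both computed by the authors per the file headers. Estimated counts and TPM of the second transcript table have the column names of kallisto, per the file headers, and the deposited readme derives them from reads. For the aligner, tool versions and strand setting, the sources used here give no entry. Hybrid reads were placed on one reference genome, and its effect was not tested.

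Gene names, coordinates and exons came from GENCODE M21 of mm10 (44 of 44 collagen genes matched). Expected counts were rounded. Entries named by a number only held 4 and 2 reads (9.5e-06% and 4.8e-06%) and were left out of all totals. Genes with 20 reads or more over both animals were compared between the libraries by an exact binomial test with TMM factors of 0.973 and 1.028 from edgeR 4.0.16 (R 4.3.3), Benjamini-Hochberg adjustment at 0.05, and exact 95% intervals. Log2 ratios used a prior count of 0.5. With 1 group no groups were compared. The limit that a count of 0 allows was 3 reads. Intervals and limits cover counting error of reads only, since there is 1 library per animal, and reads carry no molecular identifiers. Rescaled TPM divides by the TPM of nuclear protein-coding genes, 38.4% and 45.1% of all TPM. The scripts were tested on simulated data. Python 3.11.15 was used for the rest.

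The rule for names was every collagen gene at 1 TPM with its values, the others by symbol and range, each gene that differed, the 3 highest genes of each pathway list with any that differed 2-fold, the sum of each marker list, and the 5 lowest main transcript shares. Further pathway genes were named where they were called or, as with Lox, after their values were seen. The members and lists were chosen with earlier results of these data known. Of the 67 pathway genes, 1 (Mmp1a) had no match.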

Additional observations from a re-analysis of the deposited data

How the results depend on the processing

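All 19 named collagen genes kept their side of the threshold and direction with total reads, RLE factors, ERCC reads, no filter, a minimum of 100 reads and the second transcript table, and the 15 called genes were shared by every one of these. With total reads Col27a1 was added (1.38-fold, adjusted p = 0.0383, exact binomial test), giving 16. Over all genes 1831 differed (1065 higher in animal 2, 766 in animal 1), against 3371 with total reads (2994 and 377, with the median of all genes at 0.08) and 2022 with ERCC reads (1451 and 571). At 2-fold 0 collagen genes and 225 genes differed. The median collagen log2 ratio ranged from 0.20 with no filter to 0.29 with total reads.

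In the second transcript table the sums were 599.8 TPM for all collagens, 210 for fibrillar and 272 for basement membrane genes, and the shares 35.02% fibrillar, 45.2% basement membrane, 11.3% beaded and 8.46% other. Rescaled to nuclear protein-coding genes, the sums were 1090 TPM for all, 372 fibrillar, 462 basement membrane, 140 beaded and 116 other. Chain ratios in the second table were 1.36 (Col1a2 to Col1a1), 0.448 (Col4a2 to Col4a1), 1.28 (Col4a4 to Col4a3), 0.107 (Col4a6 to Col4a5), 0.613 (Col5a2 to Col5a1), 0.792 (Col5a3 to Col5a1) and 0.114 (Col8a2 to Col8a1). With main transcripts alone, added after the values were seen, the first and second tables gave 0.986 and 1.03 for Col1a2 to Col1a1, 0.811 and 0.797 for Col4a2 to Col4a1, 0.626 and 0.659 for Col5a2 to Col5a1, 0.815 and 0.823 for Col5a3 to Col5a1, 1.13 and 1.15 for Col6a2 to Col6a1, and 0.403 and 0.352 for Col6a3 to Col6a1. The cause of the differences between the tables was not tested. The pairs Col4a4 to Col4a3, Col4a6 to Col4a5 and Col5a3 to Col5a1 and the comparison at 1000 reads were also added after the values were seen.

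Genes at 1 TPM numbered 19 to 20 when either animal was left out, 21 in the second table, 24 when rescaled, 23 at 0.5 TPM and 17 at 2 TPM. With either animal left out the sums and ratios lay within 1 SD of the mean, as they must with 2 animals. No paired analysis was possible because there is 1 group. For genes under 1000 reads the interval limits what could be seen.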
